A study of Drosophila melanogaster with 24 samples.

Results

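The proteasome subunit genes of *Drosophila melanogaster* were followed in RNA-seq libraries of single embryos. Members were the protein-coding genes whose FlyBase symbol starts with Prosalpha, Prosbeta, Rpn or Rpt, with a digit after the latter pair. This gave 48 of the 17370 genes in the count table, of which 13728 are protein-coding. They comprise 32 subunits of the standard particle and 16 testis-type paralogs, recognised by an R or a T after the digit of their symbol. The 32 subunits fall into 7 of the alpha ring, 7 of the beta ring, 6 ATPases of the base, 4 other base subunits and 8 subunits of the lid.

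The proteasome degrades proteins that carry ubiquitin chains. Its core particle is a barrel of alpha rings, which form the gate, and beta rings, which hold the proteolytic sites. The regulatory particle sits on the barrel ends. Its base binds ubiquitin and unfolds substrates with a ring of ATPases, and its lid removes the ubiquitin. In the early fly embryo, maternal RNA is inherited from oogenesis and zygotic RNA appears at zygotic genome activation (ZGA). Several fly subunits have testis-specific paralogs, some of which replace the standard subunit during sperm development.

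Embryos were wild type (OrR) or AcfC, a line in which a CRISPR deletion removes most of *Acf*, the gene of a nucleosome remodeling subunit. AcfC had been backcrossed to OrR for 8 generations. Both were taken at Bownes Stage 3 (preblastoderm, about 1 h, before ZGA) and at Bownes Stage 8 (gastrula, about 4 h, after ZGA), with 6 embryos of each genotype and stage. Embryos were collected within 45 min of egg laying at 25 °C, aged under halocarbon oil and staged by eye. AcfC is a single deletion line, the deletion is present in every cell, and the sex of the embryos is not given in the labels. The study excluded an AcfC embryo of Stage 3 for improper staging, but the paper does not give its replicate number. AcfC replicate 2 of Stage 3 was taken to be that embryo here and was left out of tests and means. This left 5 AcfC embryos against 6 wild-type embryos before ZGA.

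The libraries held 4213692 to 11935129 counts, of which 2030997 to 7639980 fell on coding genes. The lowest was AcfC replicate 4 of Stage 8. *Acf* ran from 601 to 670 CPM (counts scaled to a common library size) in wild type and from 99.0 to 137 in AcfC at Stage 3, and from 479 to 509 and from 40.7 to 67.3 at Stage 8. It was lower in every AcfC embryo than in any wild-type embryo of its stage, as the genotype labels say. The stage labels were checked with 4 maternal RNAs (*bcd*, *osk*, *gcl* and *pgc*), whose summed level was 2039 to 2681 CPM at Stage 3 and 45.6 to 121 at Stage 8. The sum of 7 zygotic genes of gastrulation was 1064 to 2259 CPM at Stage 8. At Stage 3 it was 39.6 CPM in the excluded embryo, 12.9 and 10.2 in AcfC replicates 1 and 4, 7.98 in OrR replicate 3, and at most 2.64 in the other 8. CPM is a share of coding RNA in whole embryos. A lower value can mean fewer cells of a type or less RNA per cell, which cannot be told apart, and total RNA per embryo was not analysed here.

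Of the 32 subunits, 31 gave counts. *Prosalpha1* (2R, 7827303 to 7828678, minus strand, BDGP6.54) had 0 counts in all 24 embryos. Its paralog *Prosalpha1R* lies next to it (7830413 to 7831771, same strand) and had 1 count in total. The counting tool keeps only reads that map to a single place. Whether reads of this pair were lost in that way was not tested, so the value of 0 says nothing on the expression of *Prosalpha1*. Below, the core particle means the other 13 core genes. Exons of 13 of the 32 subunits share bases with another gene, at most 15.7% (*Rpn9*), and the libraries do not record the strand.

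Subunit RNAs were among the abundant messages of the embryo before ZGA. In wild-type embryos of Stage 3 the 31 genes lay between 108 (*Rpn9*) and 293 (*Prosalpha7*) mean CPM per kilobase of exon, a 2.72-fold range. Every one was within 2-fold of their median of 182 CPM per kilobase. The median over the 8404 coding genes on this scale was 22.7, and the lowest member stood at percentile 92.9. The core genes had a median of 201 CPM per kilobase and the regulatory genes 161. AcfC gave 109 (*Rpn9*) to 313 (*Prosalpha7*).

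After ZGA the levels within the complex spread apart. In wild-type embryos of Stage 8 they ran from 37.0 (*Rpn8*) to 315 (*Prosbeta6*) CPM per kilobase, an 8.50-fold range, and 25 of the 31 genes were within 2-fold of the median. The median of the core was 188 CPM per kilobase and that of the regulatory particle 84.4. Over the 8404 coding genes the median was 15.2, so that the subunits were still abundant. Their median stood at percentile 92 and the lowest member at percentile 72. In AcfC the range was 43.7 (*Rpn8*) to 259 (*Prosbeta6*), with a core median of 150 and a regulatory median of 84.0. These levels depend on annotated exon lengths and are given without a test.

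**Figure D1:**
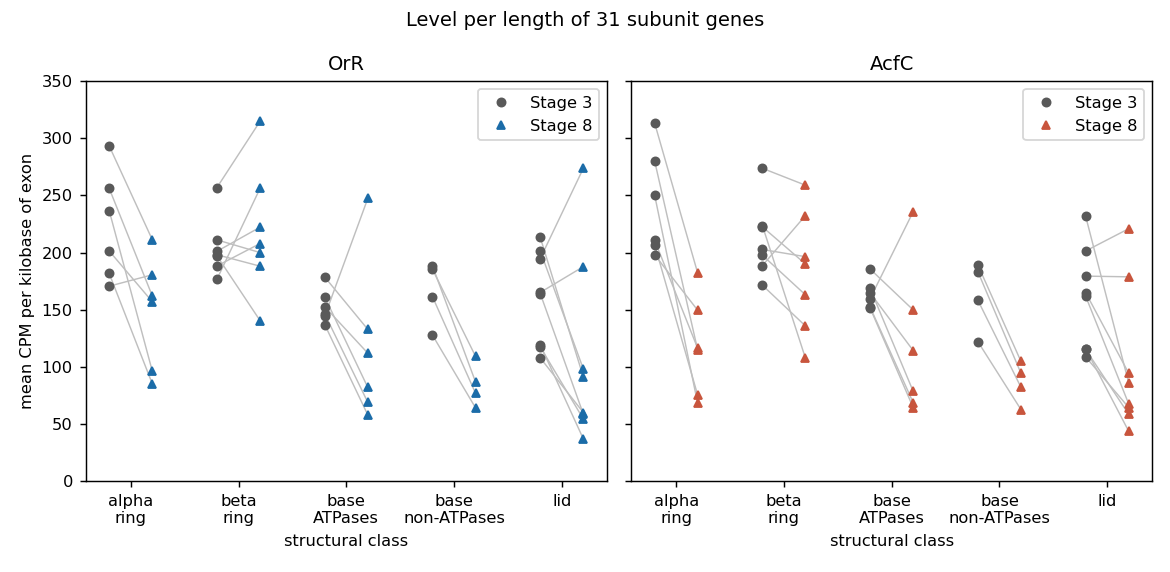
Mean level of the 31 measured subunit genes in CPM per kilobase of exon (vertical axis, linear) by structural class, at Stage 3 (circles) and Stage 8 (triangles), for OrR (left) and AcfC (right). Lines join the same gene. At Stage 3 all OrR genes lie between 108 and 293, while at Stage 8 they lie between 37.0 and 315.

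The first comparison asked how subunit RNAs changed from Stage 3 to Stage 8. In wild type, 31 of the 34 members tested changed, 10 higher and 21 lower. Calls were made at an adjusted p under 0.1 in the quasi-likelihood test of edgeR. Of those called higher, 7 were standard subunits and 3 testis-type paralogs. Among the paralogs, *Prosbeta2R2* was tested only because of its counts at Stage 8. Of all 8103 genes tested, 88.1% changed (48.5% higher and 39.6% lower), so that the share called does not set the members apart. The direction was uneven between the particles. All 18 regulatory genes changed, 15 of them lower, with a median log2 fold-change of −0.96. Among the 13 core genes 6 fell and 4 rose, with a median of −0.02. The median over all genes tested was 0.20.

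Directions close to 0 depended on the scaling. Under TMM, RLE, upper quartile and total count scaling, the median log2 fold-change of all genes ran from 0.03 to 0.46. That of the core ran with it, from −0.18 to 0.25. Scaling shifts every gene of a comparison by nearly the same amount, so class differences from all genes could hardly vary with it. The difference between core and all genes was −0.22 to −0.21, and that between regulatory genes and all genes −1.16 to −1.15. Of the 31 subunits, 15 were called lower and 3 higher under each of the 4 scalings. The share of all genes called alike under all 4 is not given here, so these counts do not set the subunits apart. Split by scaling, the members called were 10 higher and 21 lower with TMM, 11 and 20 with RLE, 13 and 15 with upper quartile, and 5 and 21 with total counts. Over all 8103 genes the calls were 3930 and 3206, 4221 and 2928, 4442 and 2686, and 3636 and 3497, in the same order.

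In the alpha ring, which forms the gate of the barrel, *Prosalpha4* had the largest decrease. Its level in wild type was 260 to 313 CPM at Stage 3 (median 274) and 69.9 to 153 at Stage 8 (median 121), and the groups did not overlap. The log2 fold-change was −1.24 (SE 0.167, edgeR adjusted p = 4.27e-06). For this and later genes, in either genotype, the share of all genes without overlap between stages is not given. Of all genes tested in wild type, 88.1% changed, so a lack of overlap does not set a gene apart. *Prosalpha3* fell by 1.03 on the log2 scale. These were the alpha genes called lower under each scaling. *Prosalpha2* (−0.60), *Prosalpha7* (−0.42) and *Prosalpha5* (−0.30) were called lower with TMM but not under each scaling. *Prosalpha6* had 168 to 192 CPM at Stage 3 (median 184) and 134 to 227 at Stage 8 (median 217), a log2 fold-change of 0.14 (SE 0.122, adjusted p = 0.29) that was −0.02 with total count scaling.

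With TMM, the beta ring was the class in which calls were mostly higher, with 4 higher and 1 lower of 7. Of all genes tested, 48.5% were called higher and 39.6% lower. The median log2 fold-change was 0.20 in the ring and 0.20 over all genes tested, so this direction does not set apart the ring. *Prosbeta7* led it with 197 to 233 CPM at Stage 3 (median 216) and 234 to 374 at Stage 8 (median 315), without overlap (log2 fold-change 0.59, SE 0.0945, edgeR adjusted p = 2.52e-05). It was the one core gene called higher under each scaling. *Prosbeta6* (0.35), *Prosbeta4* (0.20) and *Prosbeta2*, which carries the trypsin-like site (0.20), were called higher with TMM but not under each scaling. *Prosbeta3* (−0.02) and *Prosbeta5*, which carries the chymotrypsin-like site (−0.02), did not pass the test. *Prosbeta1*, which carries the caspase-like site, had 152 to 184 CPM at Stage 3 (median 171) and 89.5 to 156 at Stage 8 (median 114). It was called lower (−0.43, SE 0.121, edgeR adjusted p = 0.00384) except with upper quartile scaling.

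Of the ATPases that unfold substrates, *Rpt3* fell most, from 184 to 235 CPM (median 215) to 71.7 to 109 CPM (median 92.3), without overlap (log2 fold-change −1.18, SE 0.0999, edgeR adjusted p = 1.55e-08). *Rpt5* (−1.03) and *Rpt1* (−0.92) fell under each scaling, whereas *Rpt2* (−0.39) and *Rpt6* (−0.37) were called lower with TMM but not under each. *Rpt4* (X, 6289470 to 6291245, minus strand) went the other way. It had 202 to 222 CPM at Stage 3 (median 213) and 326 to 387 at Stage 8 (median 366), and the lowest embryo after ZGA was above the highest before it (0.83, SE 0.0575, edgeR adjusted p = 1.27e-09). This call stood under each scaling. *Rpt4* shares 93 exon bases with *wuho*.

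The other base genes all fell under each scaling, by 0.71 to 1.06 on the log2 scale. *Rpn10*, a ubiquitin receptor, had 215 to 291 CPM at Stage 3 (median 275) and 96.4 to 146 at Stage 8 (median 126), without overlap (−1.06, SE 0.0994, edgeR adjusted p = 5.69e-08). *Rpn2*, a scaffold of the base, had 540 to 685 CPM (median 650) and then 346 to 424 (median 367), also without overlap (−0.71, SE 0.0656, edgeR adjusted p = 4.94e-08). *Rpn1*, another scaffold, changed by −1.01 and *Rpn13*, another ubiquitin receptor, by −0.94.

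In the lid, 6 of 8 genes fell and did so under each scaling. *Rpn8* (2R, 24400028 to 24404527, plus strand), the partner of the deubiquitinase Rpn11, had the largest decrease of all subunits. It had 164 to 193 CPM at Stage 3 (median 184) and 51.1 to 61.9 at Stage 8 (median 58.0), without overlap (−1.63, SE 0.0647, edgeR adjusted p = 1.27e-12). *Rpn3* (−1.43), *Rpn5* (−1.17), *Rpn7* (−1.05), *Rpn11* itself (−0.98) and *Rpn9* (−0.78) fell as well. *Rpn12*, another lid subunit, rose under each scaling, from 175 to 206 CPM (median 195) to 213 to 315 CPM (median 288), without overlap (0.55, SE 0.0897, edgeR adjusted p = 3.29e-05). *Rpn6*, a structural lid subunit, changed by 0.24, which was called with TMM but not under each scaling.

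**Figure D2:**
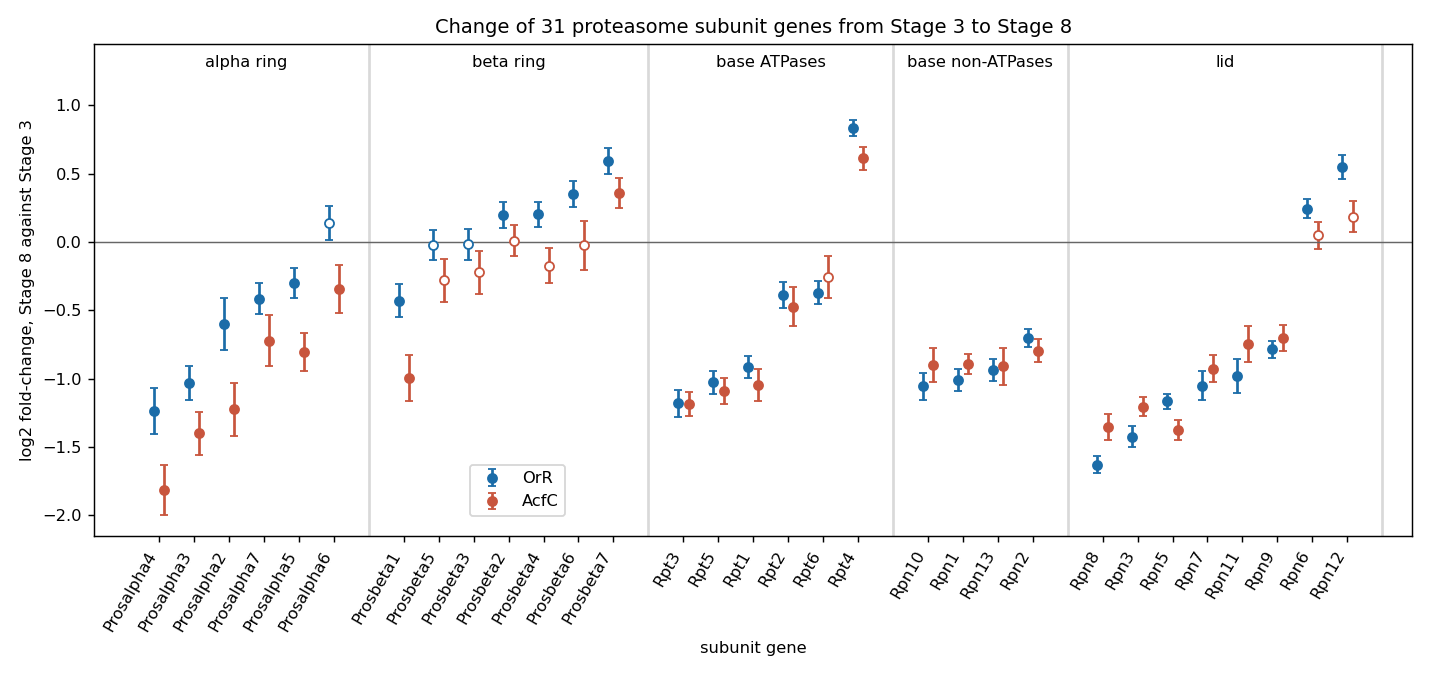
Log2 fold-change from Stage 3 to Stage 8 (vertical axis) of the 31 subunit genes, ordered within each structural class by the value in OrR, for OrR (blue) and AcfC (red). Bars are standard errors and filled points passed an adjusted p under 0.1. Most regulatory genes lie near −1 in both genotypes, and *Rpt4* lies at 0.83 in OrR and 0.61 in AcfC. The core genes lie lower in AcfC than in OrR, but none passed the edgeR test of that difference.

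In AcfC, 26 of 34 members changed between the stages, 5 higher and 21 lower. Of all 8836 genes tested, 86.2% changed (51.5% higher and 34.7% lower). The members called higher were 2 standard subunits and 3 testis-type paralogs, with *Prosbeta2R2* again tested only because of its counts at Stage 8. The regulatory genes had a median log2 fold-change of −0.90 and the core genes of −0.35, beside 0.40 over all genes. Of the 31 subunits, 19 were called lower under each scaling, among them *Prosalpha2*, *Prosalpha3*, *Prosalpha4*, *Prosalpha5*, *Prosalpha7* and *Prosbeta1*. *Rpt4* (0.61) and *Prosbeta7* (0.36) were the subunits called higher under each. For AcfC too, the share of all genes called alike under every scaling is not given. The members called were 8 higher and 19 lower with upper quartile scaling, and 5 and 25 with total counts. Over all 8836 genes these calls were 5102 and 2582, and 4257 and 3351. The core median ran from −0.50 to −0.08. It lay −0.75 to −0.74 from that of all genes and the regulatory median −1.30, differences that scaling can hardly alter. The regulatory genes ran from −1.38 (*Rpn5*) to 0.61 (*Rpt4*) and the core genes from −1.81 (*Prosalpha4*) to 0.36 (*Prosbeta7*).

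The class extremes of wild type had these levels in AcfC. *Prosalpha4* had 319, 282, 305, 286 and 279 CPM at Stage 3 and 56.4 to 133 at Stage 8 (median 72.7). *Prosbeta7* had 230, 234, 233, 232 and 217 CPM and then 223 to 334 (median 291). *Rpt3* had 215, 233, 242, 241 and 245 CPM and then 84.9 to 115 (median 101). None of these overlapped between stages except *Prosbeta7*. *Rpn10* had 236, 290, 249, 246 and 283 CPM and then 106 to 164 (median 132). *Rpn2* had 570, 693, 603, 683 and 677 CPM and then 301 to 390 (median 362). *Rpn8* had 166, 196, 155, 190 and 182 CPM and then 56.4 to 81.5 (median 67.8), with a change of −1.36. All of these fell without overlap. *Rpn12* had 203, 190, 197, 209 and 203 CPM and then 165 to 267 (median 219), a change of 0.19 (SE 0.117, edgeR adjusted p = 0.152) in which the stages overlapped. Both genotypes are described here by their own values, and the test of the difference between them is the interaction given last. The comparisons of stages and of genotypes use the same groups of embryos and are not independent of each other.

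The genes that work with the proteasome moved in both directions as well. Of 35 genes in 5 lists, 33 changed in wild type (13 higher and 20 lower) and 29 in AcfC (11 higher and 18 lower). These were 94.3% and 82.9% of the lists, beside 88.1% and 86.2% of all genes tested. *Ubi-p63E* and *Ubi-p5E*, which encode polyubiquitin, fell by 3.28 and by 2.10 on the log2 scale in wild type, while *RpL40* and *RpS27A*, which encode ubiquitin fused to ribosomal proteins, rose by 0.73 and 0.80. Among regulators, *cnc*, whose product is the fly counterpart of mammalian factors that activate proteasome genes, changed by −2.05, and *Keap1*, which encodes its inhibitor, by 3.14. *Pomp*, the assembly chaperone of the core, changed by 0.19 (adjusted p = 0.0865). *ntc*, an F-box gene that acts on proteasome activity during sperm differentiation, changed by −2.29, and *cort*, an activator of the anaphase-promoting complex in the female germline, by −3.79. The 13 ligase genes of the early embryo included *fzy* (1.35) and *Cdc16* (1.15), both called higher. *TER94* was not analysed here.

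The genotypes were compared first before ZGA, when the RNA is maternal. At Stage 3, 9 of 33 members tested differed between AcfC and wild type, 7 higher and 2 lower. Of all 7303 genes tested, 12.0% differed, 6.35% higher and 5.66% lower. The 7 higher genes changed by 0.13 to 0.22 on the log2 scale. Under each of the 4 scalings, 4 of them were called (*Prosalpha3*, *Prosalpha6*, *Prosbeta1* and *Rpt4*), while *Prosalpha2*, *Rpn5* and *Rpn6* lost the call under at least 1. With any single scaling 11.7% to 12.4% of all genes differed, and the share called under all 4 is not given here. The core median was 0.10 and the regulatory median 0.05, beside 0.00 over all genes. Of the 13 core genes 12 had a positive value. An unadjusted edgeR p under 0.05 was found for 13 of the 33 members, beside 1794 of all 7303 genes tested.

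*Prosalpha6* (2L, 10221351 to 10222546, plus strand) had the lowest adjusted p. It had 192, 168, 180, 188, 179 and 190 CPM in wild type and 204, 232, 207, 223 and 194 CPM in AcfC. Every AcfC embryo was above every wild-type embryo (0.22, SE 0.0520, edgeR adjusted p = 0.0224). *Prosalpha3* had 158 to 191 CPM in wild type (median 176) and 193, 197, 214, 198 and 205 CPM in AcfC (0.19, SE 0.0544, edgeR adjusted p = 0.0504). *Prosalpha2* had 215 to 254 CPM (median 237) and 259, 255, 263, 257 and 255 CPM (0.14, SE 0.0426, edgeR adjusted p = 0.0761). The groups did not overlap in either gene, though the highest wild-type value of *Prosalpha2* was 254 and the lowest AcfC value 255. The share of all genes without overlap between genotypes is not given here.

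In the other genes called higher the groups overlapped. *Prosbeta1* had 152 to 184 CPM in wild type (median 171) and 180, 195, 201, 190 and 187 CPM in AcfC (0.19, adjusted p = 0.0588). *Rpt4* had 202 to 222 CPM (median 213) and 244, 221, 234, 248 and 224 CPM (0.15, adjusted p = 0.0567). *Rpn5* had 392 to 418 CPM (median 404) and 414, 425, 454, 470 and 436 CPM (0.13, adjusted p = 0.0840). *Rpn6* had 311 to 347 CPM (median 315) and 344, 348, 362, 357 and 333 CPM (0.13, adjusted p = 0.0881). These adjusted p-values are from the edgeR test.

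*Prosbeta5* (2R, 10819978 to 10821178, plus strand) was the one standard subunit called lower at Stage 3. It had 221, 235, 249, 252, 241 and 245 CPM in wild type and 173, 205, 153, 238 and 208 CPM in AcfC replicates 1, 3, 4, 5 and 6 (−0.29, SE 0.0895, edgeR adjusted p = 0.0718). AcfC replicate 5 lay inside the wild-type range. The excluded embryo, replicate 2, had 135 CPM. AcfC replicates 1 and 4, the lowest of those tested, had 12.9 and 10.2 CPM of zygotic genes. OrR replicate 3, with 7.98 CPM of zygotic genes, had 249 CPM of *Prosbeta5*. Without these 3 embryos the change was −0.12 (edgeR adjusted p = 0.276). The part of staging in the level of *Prosbeta5* was not tested. *Prosbeta5* shares 81 exon bases with *Lsm10*.

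The calls before ZGA were sensitive to the embryos used. Each index sequence used for replicates 1 to 3 was used again for replicates 4 to 6, and these index sets were taken as possible batches. The first set alone gave 0 calls, beside 0.718% of all genes, and the second 3, beside 13.1%, with core medians of 0.12 and 0.10. A fit with the replicate number gave 0, beside 4.27%. Leaving out 1 embryo gave 1 call (without AcfC replicate 4, beside 6.91% of all genes) to 15 (without OrR replicate 3, beside 25.6%). There were 2 calls without OrR replicate 2, 5 or 6 (beside 7.71%, 8.86% and 8.03%). Without AcfC replicate 1 there were 4 (beside 6.61%), and without AcfC replicate 5 there were 5 (beside 12.9%). Only *Prosalpha6* passed an adjusted p of 0.05. Without the 3 embryos with over 5 CPM of zygotic genes, 4 were called, all higher, beside 9.73% of genes (*Prosalpha6*, *Prosbeta1*, *Rpn5* and *Rpn6*).

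Some regulatory genes were low in those same embryos. *Rpn11*, the deubiquitinase of the lid, had 150 CPM in OrR replicate 3 beside 228 to 283 in the other 5, and 140 and 173 CPM in AcfC replicates 1 and 4 beside 268, 194 and 221. *Rpn7* had 108 CPM in OrR replicate 3 beside 161 to 185, and 135 CPM in AcfC replicate 1 beside 156 to 179. *Rpn11* differed between genotypes by −0.29 (SE 0.167, edgeR adjusted p = 0.307). The part of staging in these values was not tested.

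**Figure D3:**
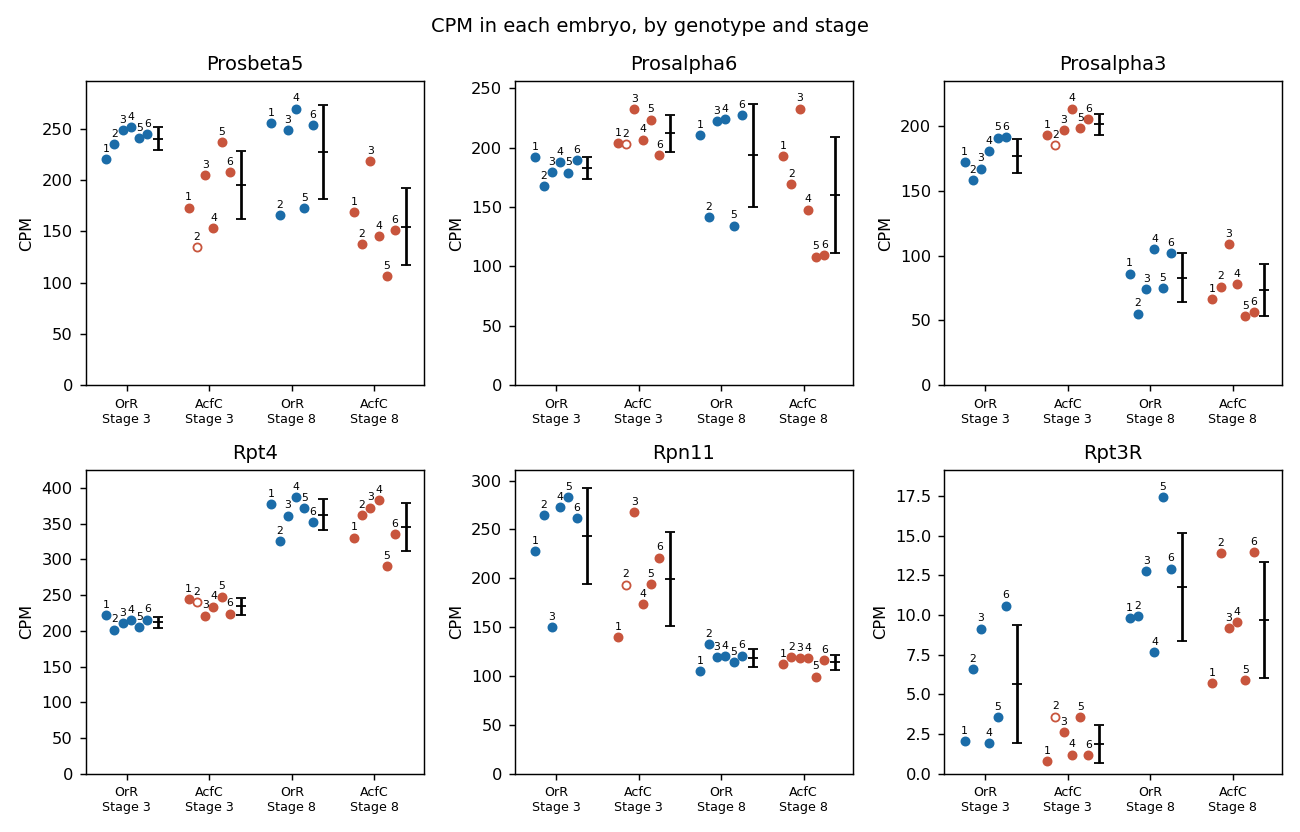
CPM of 6 members in each embryo (vertical axes from 0), by genotype and stage, with replicate numbers beside the points. Black bars are mean and SD, and the open circle is the excluded AcfC replicate 2 of Stage 3, which is not in the mean. *Prosbeta5* is lower in AcfC in most embryos at both stages, *Prosalpha6* is higher in AcfC at Stage 3 without overlap and overlaps at Stage 8, and *Rpt3R* is at most 17.4 CPM.

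After ZGA the genotypes differed in 1 member of 35 tested, *Prosbeta5*. Of all 9448 genes 4.28% differed, 2.22% higher and 2.05% lower. *Prosbeta5* had 256, 166, 249, 270, 173 and 254 CPM in wild type and 169, 137, 218, 146, 106 and 151 CPM in AcfC. The highest AcfC embryo was above the 2 lowest wild-type embryos (log2 fold-change −0.56, SE 0.164, edgeR adjusted p = 0.0941). The change was −0.36 in the first index set alone and −0.80 in the second, without a call in either. The adjusted p ran from 0.0355 to 0.212 when 1 embryo was left out, and the call held in 3 of these 12 fits, without OrR replicates 2 or 5 and without AcfC replicate 3.

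All 13 core genes had a negative value at Stage 8, from −0.56 (*Prosbeta5*) to −0.09 (*Prosbeta2*), with a median of −0.27. The 18 regulatory genes had a median of 0.01, with 9 positive and 9 negative, and all genes had a median of 0.01. Of the core genes 12 did not pass the test. An unadjusted edgeR p under 0.05 was found for 5 of the 35 members, beside 1531 of all 9448 genes tested. The core median was 0.03 in the first index set (7 positive and 6 negative) and −0.61 in the second (13 negative). It ran from −0.41 to −0.17 when 1 embryo was left out. The core genes moved together among embryos, as described next, so that 13 negative values are not 13 independent results.

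The other members called before ZGA were as follows after it. *Prosalpha6* had 134 to 227 CPM in wild type (median 217) and 108 to 233 in AcfC (median 159). *Prosalpha3* had 55.2 to 105 CPM (median 80.5) and 53.5 to 109 (median 71.3). *Prosalpha2* had 75.1 to 193 CPM (median 177) and 67.6 to 176 (median 89.9). *Prosbeta1* had 89.5 to 156 CPM (median 114) and 52.9 to 115 (median 98.7). In all of these the genotypes overlapped and the adjusted p was 0.337 or more. *Rpt4* had 326 to 387 CPM (median 366) and 291 to 382 (median 348). *Rpn5* had 161 to 196 CPM (median 169) and 145 to 180 (median 162). *Rpn6* had 298 to 394 CPM (median 374) and 283 to 414 (median 349). These overlapped as well, with adjusted p from 0.587 to 0.771.

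Within each genotype, embryos of Stage 8 differed in the core particle as a whole. The summed core level in wild type was 2604, 1763, 2581, 2918, 1968 and 2667 CPM in replicates 1 to 6, so that replicates 2 and 5 stood below the others. In AcfC it was 2156, 2048, 2656, 2125, 1453 and 1480 CPM, with replicates 5 and 6 low and replicate 3 high. At Stage 3 the sums ran from 2555 to 2914 CPM in wild type and from 2858 to 2989 in AcfC. At Stage 8 the core sum was 2417 ± 448 CPM in wild type (SD, n = 6) and 1986 ± 456 in AcfC (SD, n = 6). The regulatory sum had a narrower spread, with 3165 ± 188 CPM and 3144 ± 315 (SD, n = 6 each).

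**Figure D4:**
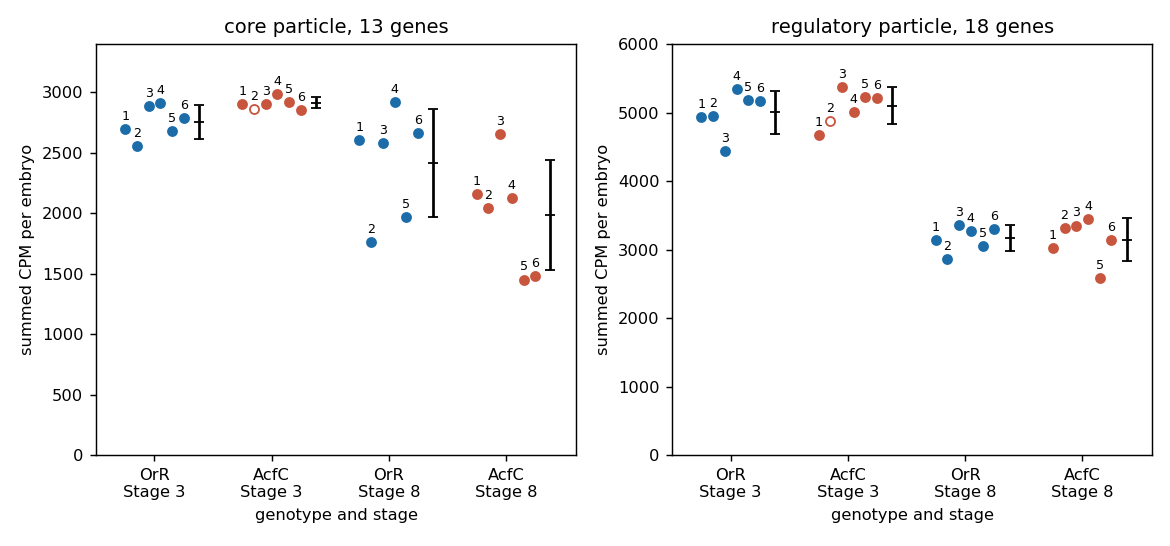
Summed CPM of the 13 core genes (left) and the 18 regulatory genes (right) in each embryo (vertical axes from 0), with replicate numbers beside the points. Black bars are mean and SD, and the open circle is the excluded embryo. At Stage 8 the core sum runs from 1763 to 2918 in OrR and from 1453 to 2656 in AcfC.

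The low embryos were low in nearly every core gene. In OrR replicate 2 all 13 core genes were below their group mean, with a median deviation of −0.41 on the log2 scale, and in replicate 5 12 of 13 (−0.35). In AcfC replicates 5 and 6 it was 13 (−0.41) and 12 (−0.34). In AcfC replicate 3 none was below the mean (0.53). The regulatory genes of the low embryos deviated by less in the median. In OrR replicates 2 and 5, 14 and 12 of the 18 lay below their group mean, by a median of −0.09 in each embryo. In AcfC replicate 5 all 18 were below it (−0.24), and in replicate 6 it was 8 of 18 (0.02). The median coefficient of variation (CV) of the core genes was 20.5% in wild type and 27.3% in AcfC at Stage 8, beside 8.79% and 12.8% for the regulatory genes and 12.0% and 14.8% for 5123 other genes of at least 20 CPM. At Stage 3 the core genes had 6.59% in wild type, near the 7.15% of the other genes. In AcfC they had 4.26%, below the 7.11% of the other genes.

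The shared movement was described by the correlation of deviations between pairs of genes, over 6 embryos of a group, without a test. At Stage 8 the median over 78 pairs of core genes was 0.90 in wild type and 0.86 in AcfC. Over 153 pairs of regulatory genes it was 0.33 and 0.47, between core and regulatory genes 0.43 and 0.46, and between core and other genes −0.05 and 0.10. It rested in part on the outlying embryos: without those whose core sum lay farthest from the median, the core values over 4 embryos were 0.67 and 0.56. At Stage 3 the core medians were 0.56 over 6 wild-type and 0.28 over 5 AcfC embryos.

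Each gene was also correlated with the core mean over the 12 embryos of Stage 8. Of the 13 core genes, which are part of that mean, 6 lay above 0.9, as did 0.721% of 5410 genes of at least 20 CPM. *Rpn12* of the lid (0.91) was the one regulatory gene of 18 above it. Of the pathway lists, *Cul1* (0.98) and *Pomp* (0.92) were above 0.9. *Cul1*, a scaffold of ubiquitin ligases, had 844, 637, 809, 894, 718 and 827 CPM in wild type and 652, 598, 764, 618, 496 and 518 in AcfC. Its lowest embryos were those with the lowest core sum in both genotypes, and no other gene of the 5410 had a higher correlation. It was called lower in AcfC at Stage 8 (−0.38, SE 0.108, edgeR adjusted p = 0.0878), the one gene of the 35 that was.

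Other measures of these embryos stand beside this. The maternal sum was lowest in OrR replicate 2 (45.6 CPM, others 74.5 to 91.1) and AcfC replicate 5 (55.8, others 76.3 to 121), but in OrR replicate 5 it was the highest of its group (91.1). The maternal gene *osk* had 9.01 CPM in OrR replicate 2 beside 14.1 to 16.7, and 6.46 and 9.91 in AcfC replicates 5 and 6 beside 12.5 to 17.6. In contrast, *bcd* of the same list had 1.80 and 4.06 CPM in OrR replicates 2 and 5, the lowest and highest of wild type. Its levels in AcfC replicates 5 and 6 were 1.76 and 2.94 CPM beside 1.44 to 3.52. Within AcfC the zygotic sum was highest in replicate 5 (2259 CPM) and lowest in replicate 6 (1112), while in wild type it ran from 1064 to 1608. The pair-rule gene *ftz*, of the zygotic list, had its lowest levels of the 12 embryos in AcfC replicates 5 and 6 (52.9 and 16.9 CPM, others of AcfC 125 to 276). In wild type its highest level was in replicate 5 (209.2, others 92.5 to 147). Other genes of that list differed from it: *sna* (418 CPM) and *twi* (509 CPM) were highest of the 12 embryos in AcfC replicate 5. In AcfC replicate 6 they had 162 and 245 CPM. Coding counts were 3595416 and 3682842 in OrR replicates 2 and 5, the lowest of wild type at this stage, and 3615885 and 2753950 in AcfC replicates 5 and 6, while AcfC replicate 4 had 2030997 and a core sum of 2125. Genes of 800 to 1300 exon bases, the range of the core genes, had median deviations between −0.05 and 0.10 in every embryo. The part of staging or depth in the core level was not tested.

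**Figure D5:**
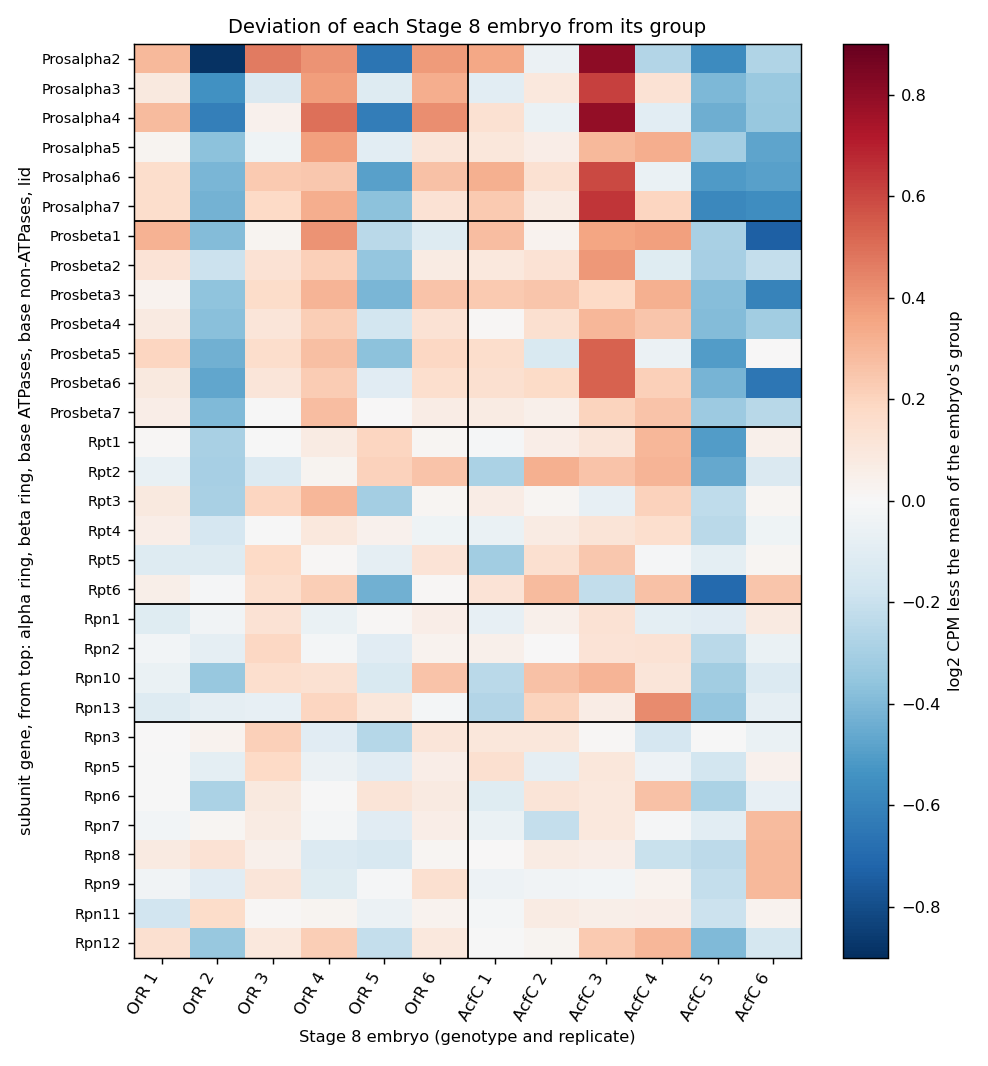
Deviation of log2 CPM from the group mean (colour) for 31 subunit genes (rows, by class) in the 12 embryos of Stage 8 (columns). Core genes are blue together in OrR 2, OrR 5, AcfC 5 and AcfC 6 and red together in AcfC 3, while most regulatory genes are paler.

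Most testis-type paralogs were at or near 0, apart from *Rpt3R* at both stages and *Prosbeta2R2* at Stage 8. All 16 together had 1080 counts in 24 embryos, of which *Rpt3R* and *Prosbeta2R2* held 965. In *Prosalpha3T*, *Prosbeta4R2*, *Prosbeta5R1* and *Prosbeta5R2*, 4 of the 16, no count was seen. *Prosalpha1R*, *Prosalpha4T2*, *Prosalpha6T*, *Prosbeta2R1*, *Prosbeta4R1*, *Rpn13R* and *Rpt4R* had 1 to 5 counts in all and under 3 in every embryo. A count of 0 over a group allows up to 0.0769 to 0.134 CPM, taking 3 counts as the limit. Of 8 testis genes used as a check, *mia* had up to 120 counts in an embryo and the other 7 at most 3.

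*Prosbeta2R2* (3R, 5217751 to 5219528, minus strand), a paralog of the trypsin-like subunit, appeared at Stage 8. It had 1 count over 6 wild-type embryos at Stage 3 and 100 at Stage 8, when all 6 embryos had 7 to 28 counts (2.10 to 6.70 CPM, median 4.23). The ratio scaled for library size was 163 (exact 95% interval 28.5 to 6490, counting error only). In AcfC it had 2 counts in 5 embryos at Stage 3 and 73 at Stage 8 (1.51 to 5.51 CPM, median 3.17), a ratio of 46.7 (12.5 to 393). At 3.09 and 2.46 mean CPM per kilobase after ZGA, it was below *Prosbeta2*, which had 208 and 196. The genotypes did not differ beyond their spread (−0.34, SE 0.340, edgeR adjusted p = 0.677).

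*Rpt3R* (3R, 9754735 to 9756510, minus strand), a paralog of an ATPase, was the most abundant paralog and was counted in every embryo. At Stage 3 it had 2.07, 6.60, 9.15, 1.94, 3.55 and 10.6 CPM in wild type and 0.806, 2.64, 1.20, 3.55 and 1.17 CPM in AcfC. All AcfC embryos lay below the 3 highest wild-type embryos, and the groups overlapped (−1.57, SE 0.525, edgeR adjusted p = 0.0916). The call was lost in 6 of the 11 fits without 1 embryo, where the adjusted p ran from 0.0587 to 0.201. Without the embryos with over 5 CPM of zygotic genes the change was −1.03 (adjusted p = 0.336). At Stage 8 it had 7.66 to 17.4 CPM in wild type (median 11.3) and 5.69 to 14.0 in AcfC (median 9.35), without a call between genotypes (−0.29, adjusted p = 0.629). It rose between stages in wild type (1.10, edgeR adjusted p = 0.0130) and in AcfC (2.40, edgeR adjusted p = 8.79e-05).

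The other paralogs with 3 or more counts in an embryo stayed under 3 CPM. *Rpt6R*, another ATPase paralog, had 14 counts at Stage 3 and 20 at Stage 8 over the wild-type embryos (1.19, edgeR adjusted p = 0.0978, a call not kept under each scaling) and 3 and 29 over the AcfC embryos (3.36, edgeR adjusted p = 0.00135). Its highest level was 2.94 CPM, in AcfC replicate 6 of Stage 8, and 3 of the 12 embryos of Stage 8 had no count. *Rpn12R*, a paralog of a lid subunit, had 3 and 11 counts in wild type and 1 and 6 in AcfC. *Prosalpha4T1*, a paralog of an alpha subunit, had 0 counts at Stage 3 in both genotypes and 6 in each at Stage 8, spread over 5 embryos.

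Whether the genotype difference itself changed from Stage 3 to Stage 8 was tested as an interaction over 23 embryos. None of the 34 members tested passed in edgeR, beside 2.72% of 8698 genes. An unadjusted edgeR p under 0.05 was found for 12 of the 34 members, beside 1330 of the 8698 genes. DESeq2 called 4 members, all lower, beside 6.66% of all genes. All 13 core genes had a negative interaction, with a median of −0.37, from −0.62 (*Prosalpha2*) to −0.19 (*Prosbeta2*). They moved together among embryos of Stage 8, so that the 13 values are not independent results. The core median between genotypes at Stage 8 was negative in the second index set and not in the first. The 18 regulatory genes had a median of 0.01, with 9 positive and 9 negative. The lowest edgeR adjusted p of a subunit was that of *Prosalpha5* (−0.50, SE 0.174, adjusted p = 0.154). It had 164 to 215 CPM in wild type (median 192) and 197, 204, 212, 189 and 195 CPM in AcfC at Stage 3, and 114 to 189 (median 146) and 77.1 to 135 CPM (median 114) at Stage 8. The genotypes overlapped at both stages.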

How the data were processed

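Single whole embryos were sequenced as rRNA-depleted, nondirectional libraries. The deposited files hold raw counts per gene, which the authors made with STAR 2.5.0a (uniquely mapped reads, genes of FlyBase r6.09, reads over several genes not counted), and no column lacked a sample. Total counts per embryo ran from 4213692 to 11935129. Counting intervals and limits cover counting error only. Replicates are separate embryos, and no 2 libraries agreed within sampling noise (60 pairs, chi-square per degree of freedom 2.10 to 26.7).

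Coding genes were removed when 50% or more of the compared embryos had 0 counts. Each comparison was fitted in edgeR 4.0.16 (R 4.3.3) with TMM scaling and the quasi-likelihood test on its own groups, with Benjamini-Hochberg adjustment over all genes tested and a threshold of 0.1. The interaction used all 23 embryos. CPM were computed from the deposited counts on a single TMM scale over 24 embryos and 8404 genes. Standard errors are of the log2 fold-change. Coordinates and exon lengths are from Ensembl 115 (BDGP6.54). Correlations use log2(CPM + 0.5). The scripts were tested on simulated data.

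Values per embryo are given for members called between genotypes, for the highest and lowest wild-type stage change of each structural class, and for paralogs with 3 or more counts in an embryo. *Rpn3*, *Rpn7*, *Rpn11*, *Prosalpha5*, *Cul1* and the core sums were described after their values were seen. The members and lists were chosen with earlier results of these data known. Alternatives were DESeq2 1.42.0, a threshold of 0.05, other scalings, other filters, all genes of the table, the index set or replicate number in the fit, a fit of all 4 groups, each index set alone, all 6 AcfC embryos of Stage 3 and leaving out each embryo. The fit without Stage 3 embryos over 5 CPM of zygotic genes was chosen after seeing the data. A motif scan of promoters was not analysed here.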

Additional observations from a re-analysis of the deposited data

Results flagged for a closer look

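Of 132 groups of values tested for a single outlying embryo, 6 were past Dixon's critical value. Chance gives about 1 in 20 groups. In AcfC embryos of Stage 3, *Prosbeta7* was lowest in replicate 6 (217.4 CPM, nearest 229.5). In wild-type embryos of Stage 3, *Rpn7* (108 CPM, nearest 160.8) and *Rpn8* (163.9 CPM, nearest 182) were lowest in replicate 3, the wild-type embryo with the highest zygotic sum. At Stage 8, *Rpn6* was lowest in OrR replicate 2 (298.4 CPM, nearest 362.4), *Rpn11* was lowest in AcfC replicate 5 (99.3 CPM, nearest 112.3), and *Prosalpha4* was highest in AcfC replicate 3 (133.1 CPM, nearest 84.5). The causes were not tested.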

How the results depend on the processing

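Of 809 alternative values of 32 results, 669 kept direction and call, 130 lost the call, 9 gained a call and 1 reversed (*Prosalpha6* between stages in wild type, −0.015 with total count scaling). The stage comparisons stayed within 1.5 times their number of calls. Shares of all genes called are given in brackets. Between genotypes at Stage 3 the 9 calls (12.0%) became 1 at a threshold of 0.05, 4 without a filter (6.84%) and 1 in the fit of all 4 groups (4.81%). They became 0 and 3 in the first and second index sets (0.718% and 13.1%). Without the embryos over 5 CPM of zygotic genes 4 remained (9.73%), and without 1 embryo 1 to 15 (6.61% to 25.6%). At Stage 8 the 1 call (4.28%) became 0 at 0.05, with total count scaling (4.01%) and with all genes of the table (3.41%). It was also 0 with the index set in the fit (3.44%) and in each index set alone (0.538% and 0.0217%). There were 2 calls with DESeq2 (6.91%), 4 in the fit of all 4 groups (10.9%), and 0 to 2 without 1 embryo (2.01% to 4.67%). The interaction gave 4 calls with DESeq2 (6.66%) and 0 to 2 without 1 embryo (1.77% to 6.25%). The causes were not tested.

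Replicate numbers name different embryos, and deviations of same-numbered embryos correlated at −0.547 to 0.328 over the comparisons. The main fits do not pair them. So few embryos cannot show whether those of the same number shared a batch. With the replicate block, calls were 0 at Stage 3 (4.27% of all genes) and 1 at Stage 8 (2.67%). Between stages they were 30 in wild type (87.3%) and 28 in AcfC (84.0%), and for the interaction 0 (2.08%). Of the 16 paralogs, 11 had under 3 counts in every embryo, which limits what can be said of them.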
